A study of Mus musculus with 6 samples.

Results

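Collagen genes were taken from the deposited gene table as the protein-coding genes whose symbol is Col, a number, the letter a and a number. The rule used names only, and it found 44 of the 56748 genes listed. The study asked how primary osteocytes lacking *Gsdmd*, the gene of the pore-forming protein gasdermin D, respond transcriptionally to a stimulus of pyroptosis, an inflammatory lytic cell death. RNA was sequenced from 3 WT (C57BL/6) cultures and 3 cKO cultures (*Gsdmd* fl/fl; DMP1-Cre, in which the *Dmp1* promoter drives Cre recombinase). The cells came from long bones of 7-week-old mice, whose marrow was flushed out and whose epiphyses were removed, and were released by trypsin, collagenase and EDTA. They were grown for 7 days together with the digested bone pieces, and for stimulation they were seeded on plates coated with type I collagen. All 6 cultures were then exposed to LPS (10 ng/mL over 3 h) and, for another 3 h, to 20 µg/mL of the inflammasome activator aluminum hydroxide. No unstimulated library was analysed here, and all comparisons below are between stimulated cultures. The labels do not say whether replicates came from separate mice, and p-values then measure only the spread between these libraries, which may be technical.

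Collagens are the structural proteins of the extracellular matrix. Their alpha chains wind around each other as a triple helix built on glycine repeats, and chains of the same or of different genes combine in a type. Fibrillar collagens assemble into the cross-banded fibrils of bone, skin, tendon and cartilage, and type I collagen is the main protein of bone matrix. Network-forming collagens build basement membranes, type VI collagen forms beaded filaments around cells, and fibril-associated collagens with interrupted helices (FACIT) decorate fibril surfaces. Transmembrane collagens and multiplexins link cells, basement membranes and the surrounding matrix. Osteocytes are the cells embedded in mineralized bone, and the osteoblasts they derive from secrete type I collagen in bulk.

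The library totals lay between 39566835 and 49734046 counts on genes. Counts of replicates differed by more than sampling noise, with a chi-square of 4.71 to 13.0 per gene, so every library was kept as 1 sample. *Gsdmd* was higher in the libraries labelled cKO (885, 937 and 1045 counts) than in WT (609, 699 and 549 counts). Counts per gene cannot separate its floxed exons from the others. Directions below therefore rest on the genotype labels, which this gene did not bear out. Of 7 osteocyte markers, *Sost* had 0 counts in every library and *Dmp1* averaged 0.0344 CPM (counts per 1000000, with library sizes scaled by edgeR's TMM factors) in WT and 0.0955 CPM in the libraries labelled cKO, so both defining markers were at or near 0. *Pdpn*, another of the 7, averaged 233.8 and 193.0 CPM. *Xist*, transcribed from the inactive X chromosome of females, averaged 0.0468 CPM in WT and 1138 CPM in the libraries labelled cKO, where the Y-linked genes *Ddx3y*, *Eif2s3y*, *Uty* and *Kdm5d* had 0 counts, so genotype and sex cannot be told apart. All 14 tested macrophage markers of 16 listed were higher in the libraries labelled cKO (1 of them, *Aif1*, was tested only through those libraries). By the test described below, 20.1% of all tested genes rose. The summed level of the macrophage markers was 6860 to 7193 CPM in the libraries labelled cKO against 1207 to 1350 CPM in WT. The part of macrophages in the collagen results was not tested, and a lower level in bulk RNA cannot tell fewer cells of a type from less RNA per cell.

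Of the 44 collagen genes, 35 had enough counts to be tested and 9 did not. With edgeR's quasi-likelihood test, adjusted by Benjamini and Hochberg's method over 17146 genes, 11 of the 35 rose, 17 fell and 7 did not pass an adjusted p of 0.05. Across all tested genes 20.1% rose and 19.2% fell. The share of all tested genes whose groups did not overlap is not given, so a lack of overlap below describes single genes only. With the added requirement of a change of at least 2-fold, 7 collagen genes rose and 9 fell, where the shares over all tested genes were 6.56% and 4.64%. *Col9a1* and *Col9a2* were tested only through the counts of the libraries labelled cKO, so the filter favoured their rise. The median log2 fold change of the 35 was -0.67, against 0.0077 for all tested genes, and their values ran from a lower level of *Col15a1* by 28.4-fold to gains from 0 counts in WT. When libraries were scaled to the collagen counts instead, which moved the median of all genes to 0.24, 15 collagen genes rose and 15 fell. The rising share of the called members was then 50%, against 39.3% with TMM. This scaling centres the libraries on the collagens, so a move toward equal numbers is partly built in.

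**Figure D1:**
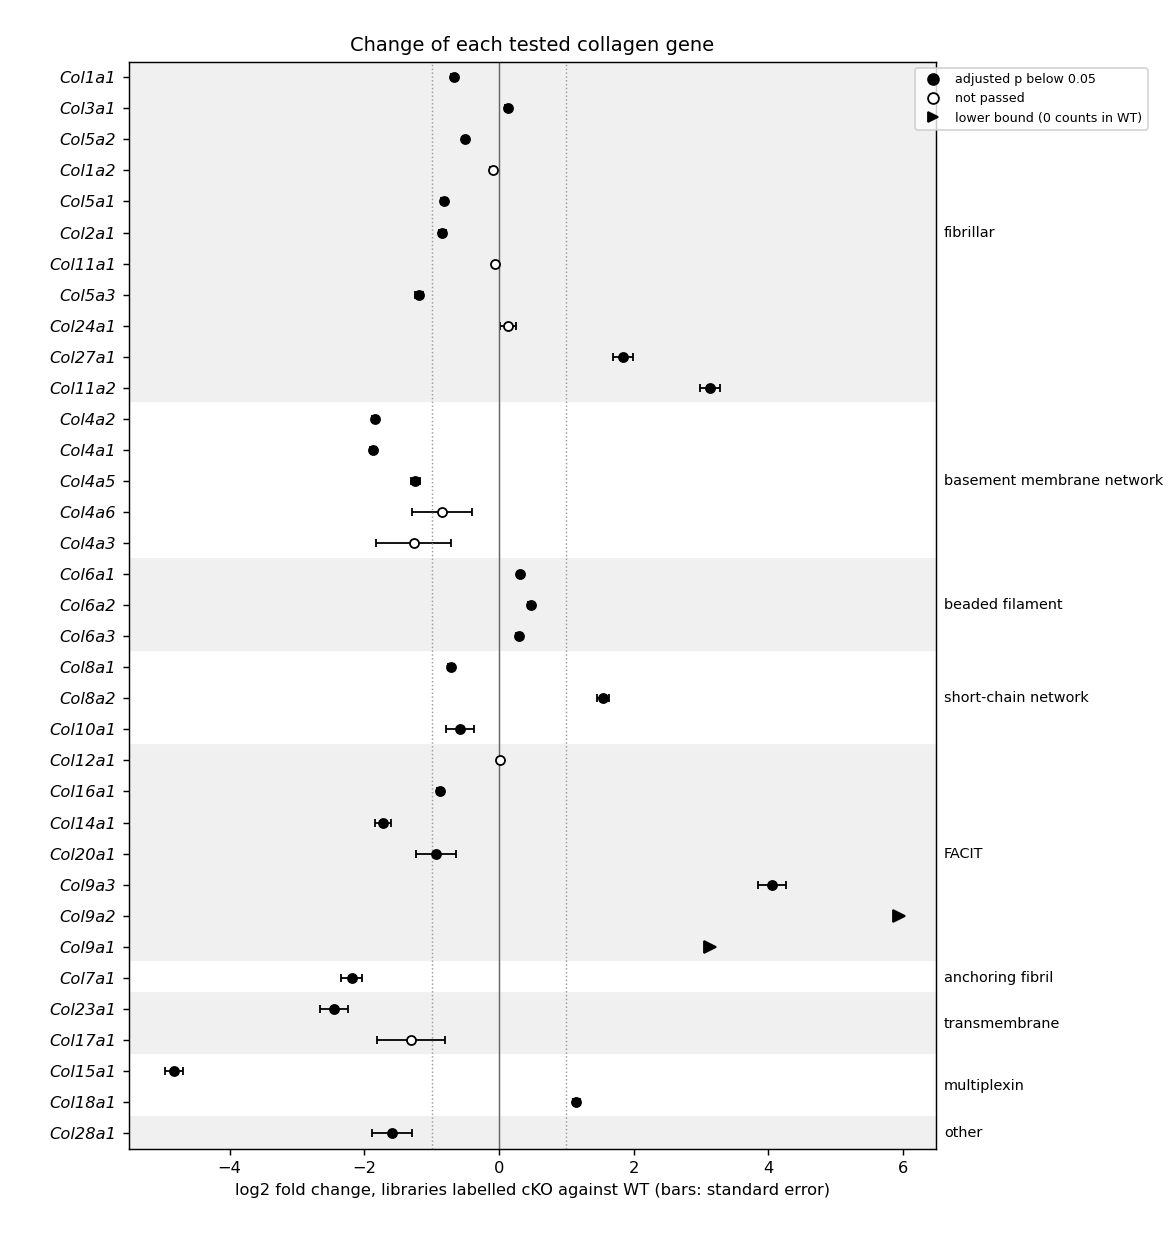
Log2 fold change of the 35 tested collagen genes (x axis, libraries labelled cKO against WT, n = 3 each, bars are standard errors), grouped by structural class, with filled points for an adjusted p below 0.05 and arrows for lower bounds where WT had 0 counts. The 5 tested basement membrane genes lie left of 0, among them *Col4a3*, which was tested only through its WT counts. The 3 tested beaded filament genes lie right of 0, and the fibrillar and FACIT genes lie on both sides.

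Collagen transcripts took 3.36%, 3.28% and 3.47% of all counts on genes in the WT libraries and 2.82%, 2.89% and 3.01% in the libraries labelled cKO. The groups did not overlap, and the means were 3.37% ± 0.0947 and 2.91% ± 0.0938 (SD, n = 3 each). The two-sided exact permutation p was 0.1, the smallest that 3 against 3 libraries allow, so no such value can pass 0.05. On the per-length scale (CPM per kilobase of the deposited gene length), the only one on which levels of different genes are compared below, the same 6 genes filled the highest ranks in both groups. They were *Col1a1*, *Col3a1*, *Col5a2*, *Col12a1*, *Col1a2* and *Col6a1*.

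*Col3a1* (chr1:45350698-45388866 of GRCm39), which encodes the chain of type III collagen of compliant tissues, measured 762.0, 745.3 and 799.4 CPM per kilobase in WT and 811.3, 832.1 and 880.1 in the libraries labelled cKO. The groups did not overlap, and the difference was small, with a log2 fold change of 0.13 (standard error 0.033, edgeR adjusted p = 0.00466). Without WT replicate 1 the adjusted p was 0.0528. *Col1a1* (chr11:94827050-94843868), the major chain of type I collagen, measured 881.9, 837.2 and 933.2 CPM per kilobase in WT and 535.5, 555.3 and 577.7 in the libraries labelled cKO. Every library labelled cKO was below every WT library, and the log2 fold change was -0.67 (standard error 0.038, edgeR adjusted p = 1.21e-10). Per kilobase, *Col1a1* was thus the highest collagen gene in WT and *Col3a1* in the libraries labelled cKO. This order rests on the deposited gene lengths, whose origin is not stated, since *Col3a1* was the highest in both groups in CPM (7548 against 5802 for *Col1a1* in WT, and 8257 against 3650 in the libraries labelled cKO). *Col1a2* (chr6:4504814-4541544), the partner chain of type I collagen, measured 264.9, 258.8 and 289.1 CPM per kilobase in WT and 241.8, 256.4 and 264.9 in the libraries labelled cKO. Here the groups overlapped, and the log2 fold change of -0.09 (standard error 0.041) did not pass the test (edgeR adjusted p = 0.0917). It passed in 3 of 14 other settings, among them without WT replicate 2 (adjusted p = 0.0247), and turned positive, to 0.15, when scaled to collagen counts.

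*Col5a2* (chr1:45413481-45542442) encodes a chain of type V collagen, which co-assembles with type I and helps to set fibril diameter. It measured 470.8, 470.9 and 511.8 CPM per kilobase in WT and 338.1, 333.7 and 353.3 in the libraries labelled cKO, without overlap. Its log2 fold change was -0.50 (standard error 0.0355, edgeR adjusted p = 2.47e-09). *Col12a1* (chr9:79506273-79626113), a FACIT collagen of tendon and bone surfaces, measured 315.1, 311.5 and 316.8 CPM per kilobase in WT and 308.8, 314.9 and 327.7 in the libraries labelled cKO. The groups overlapped, and the log2 fold change of 0.01 (standard error 0.029) did not pass (edgeR adjusted p = 0.786). Its sign changed when 1 of 3 libraries was left out, to -0.0017 without WT replicate 1, -0.0042 without WT replicate 2 and -0.011 without cKO replicate 3, and it passed at 0.25 when scaled to collagen counts. *Col6a1* (chr10:76544626-76562002), a chain of type VI collagen, measured 205.2, 209.5 and 204.2 CPM per kilobase in WT and 246.2, 263.5 and 262.4 in the libraries labelled cKO. Those were all above WT, with a log2 fold change of 0.32 (standard error 0.036, edgeR adjusted p = 9.92e-07).

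**Figure D2:**
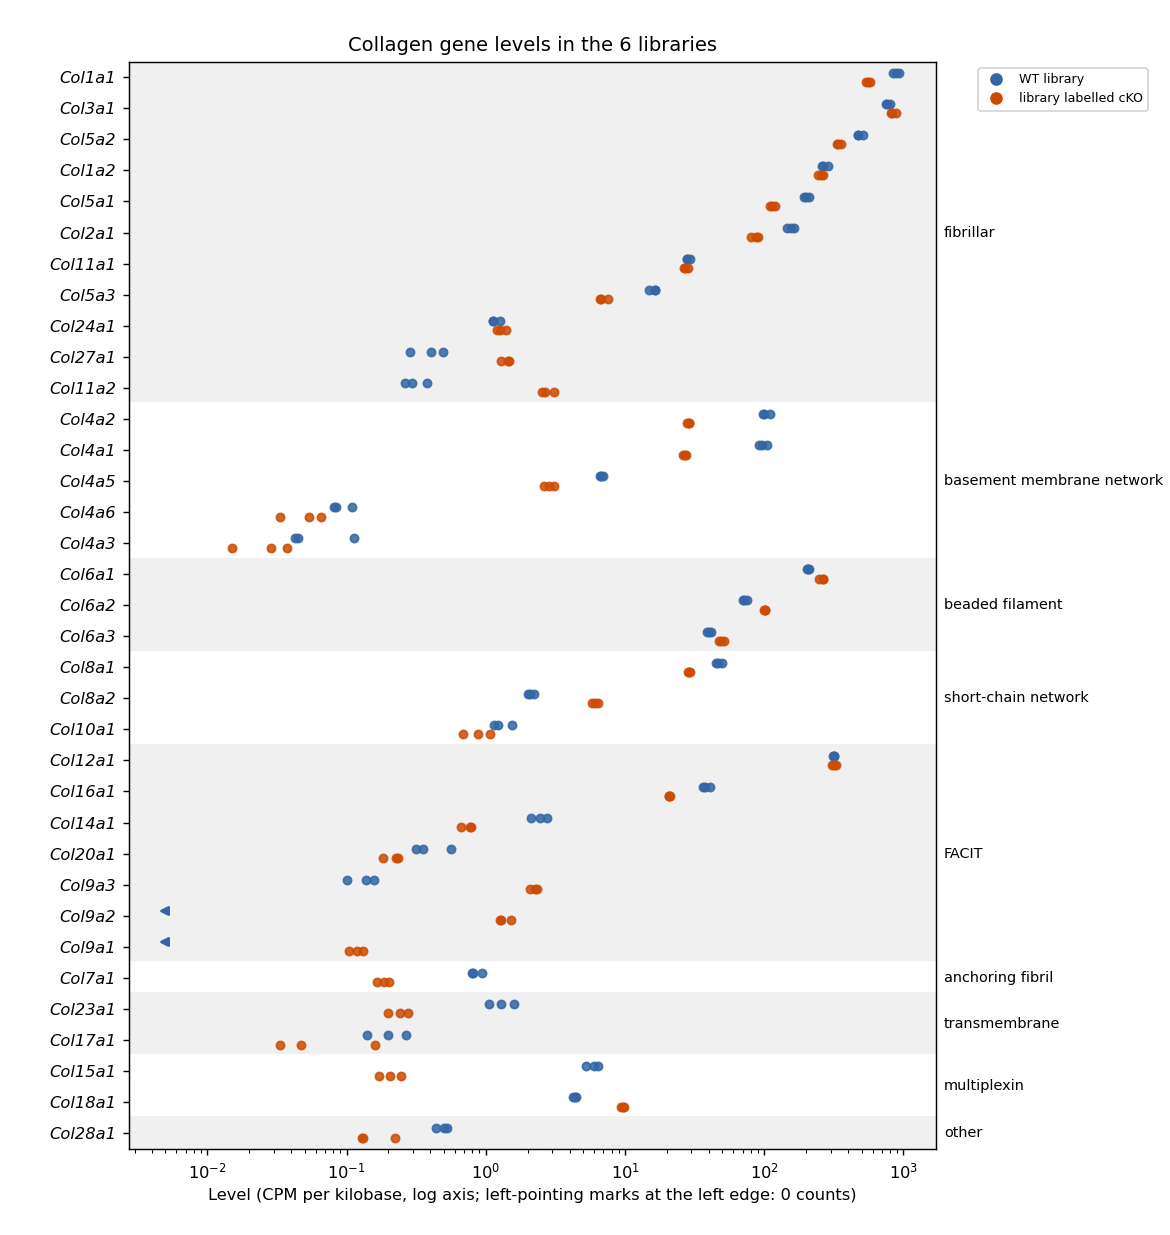
Level of each tested collagen gene in each of the 6 libraries (x axis, CPM per kilobase, log axis), grouped by class, with 1 point per library and left-pointing marks where WT had 0 counts. Levels span from below 0.1 CPM per kilobase to the levels of *Col1a1* and *Col3a1*. The points of the 2 groups are apart for most genes and interleaved for *Col12a1*, *Col1a2*, *Col11a1*, *Col24a1* and *Col17a1*. How often groups lie apart among all tested genes is not shown.

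The make-up of the collagen transcripts shifted accordingly. As a share of the summed CPM per kilobase, *Col1a1* made up 23.5% ± 0.405 in WT and 18.0% ± 0.0759 in the libraries labelled cKO, and *Col3a1* 20.5% ± 0.0599 and 27.2% ± 0.261 (SD, n = 3 each). The fibrillar class held 74.8% ± 0.505 and 72.3% ± 0.396, so most collagen transcripts were fibrillar in both groups. Type VI genes held 8.50% ± 0.285 in WT and 13.2% ± 0.316 in the libraries labelled cKO. Basement membrane genes moved the other way, from 5.51% ± 0.132 to 1.89% ± 0.0586. For each of these shares the 3 libraries of a group lay apart from the other 3. The shares of a library sum to a whole, so that a gain of one class lowers the others.

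**Figure D3:**
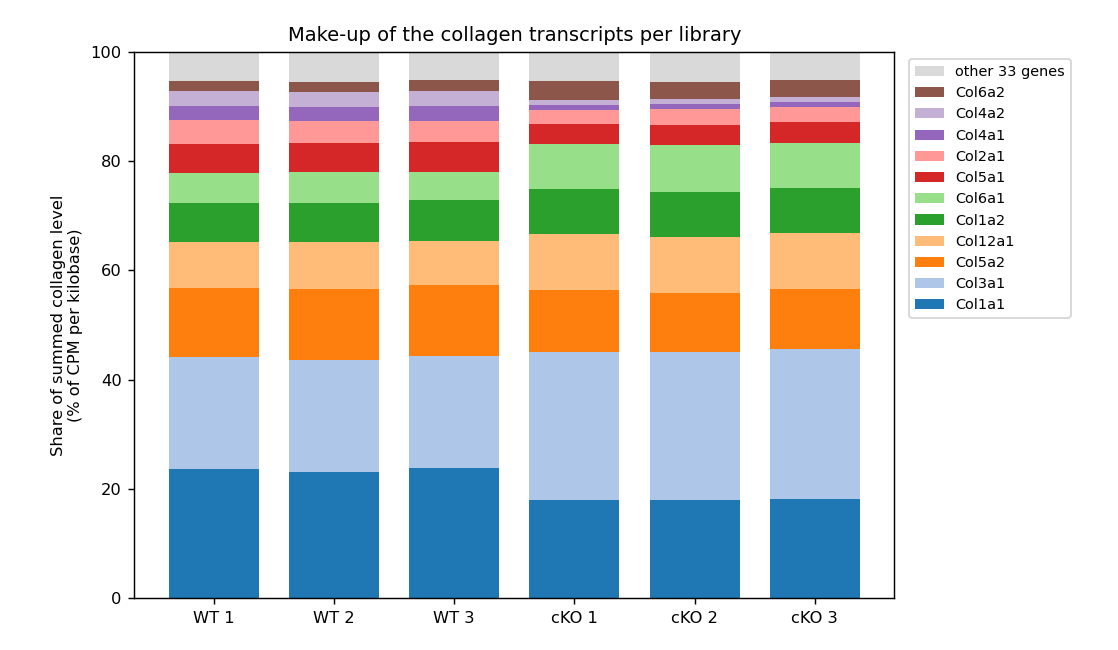
Share of the summed collagen level (y axis, % of CPM per kilobase) held by collagen genes, as 1 stacked bar per library. The blocks are the 11 genes with the highest levels in WT and the other 33 together. *Col1a1* is the lowest block, at about 23.5% in WT and 18.0% in the libraries labelled cKO, and the blocks of *Col4a1* and *Col4a2* are thinner in the latter.

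All 11 fibrillar genes were tested, of which 3 rose, 5 fell and 3 did not pass. Beside *Col1a1* and *Col5a2*, the falling genes were *Col5a1*, *Col2a1* and *Col5a3*. *Col5a1*, the chain that *Col5a2* pairs with, averaged 1725 ± 77.3 CPM in WT and 980.2 ± 40.8 CPM in the libraries labelled cKO (log2 fold change -0.82). *Col2a1*, the main fibrillar collagen of cartilage, averaged 1428 ± 77.7 CPM and 797.8 ± 47.5 CPM (log2 fold change -0.84, edgeR adjusted p = 7.47e-11). *Col5a3* (chr9:20681346-20726363), the third chain gene of type V collagen, measured 112.4, 101.2 and 111.7 CPM in WT and 45.1, 45.8 and 51.1 CPM in the libraries labelled cKO. Its groups did not overlap, and its log2 fold change of -1.19 (standard error 0.059, edgeR adjusted p = 2.09e-11) was the only fibrillar fall of at least 2-fold. All 3 genes of type V collagen thus fell, and *Col5a3*, the lowest of them per kilobase, by the most.

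The rising fibrillar genes were *Col3a1* and 2 genes of low level. *Col11a2* (chr17:34258411-34285659) encodes a chain of type XI collagen, which nucleates cartilage fibrils together with type II. It was counted 117, 90 and 79 times in WT and 769, 841 and 787 times in the libraries labelled cKO. There was no overlap, and the log2 fold change was 3.14 (standard error 0.143, edgeR adjusted p = 6.31e-12), from 2.15 ± 0.405 to 18.9 ± 1.99 CPM. *Col11a1*, whose product joins that of *Col11a2* in the cartilage trimer, averaged 361.3 ± 8.32 and 347.5 ± 13.2 CPM and did not pass (log2 fold change -0.06, standard error 0.040, edgeR adjusted p = 0.300). Its groups overlapped, and its sign turned to 0.18 when scaled to collagen counts. *Col27a1* (chr4:63132241-63253228), a fibrillar collagen of developing cartilage, was counted 236, 186 and 248 times in WT and 710, 742 and 875 times in the libraries labelled cKO. It rose without overlap (log2 fold change 1.84, standard error 0.147, edgeR adjusted p = 1.34e-08). *Col24a1*, a fibrillar collagen of bone, averaged 8.93 ± 0.610 and 9.81 ± 0.771 CPM with overlap, and passed only when scaled to collagen counts (log2 fold change 0.14 by TMM and 0.37 by that scaling).

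The 6 genes of type IV collagen, the network of basement membranes, lie in 3 head-to-head pairs, and 5 of them were tested. Of these 3 fell, all by at least 2-fold, none rose and 2 did not pass. *Col4a1* (chr8:11248423-11362826) measured 723.6, 686.7 and 784.5 CPM in WT and 200.8, 194.2 and 204.0 CPM in the libraries labelled cKO. *Col4a2* (chr8:11362805-11499287) measured 657.5, 647.6 and 723.9 CPM in WT and 190.5, 185.8 and 190.6 CPM in the libraries labelled cKO. Every library labelled cKO was below every WT library for both genes, whose chains form the widespread type IV trimer. The log2 fold changes were -1.87 (standard error 0.047, edgeR adjusted p = 2.25e-15) for *Col4a1* and -1.84 (standard error 0.045, edgeR adjusted p = 1.46e-15) for *Col4a2*. The deposited spans of this pair share 22 bases on opposite strands of chromosome 8. The shared bases are shown in capitals because they are where both transcription units begin, within GRCm39 chr8:11362801-11362830 on the plus strand.
Col4a1 and Col4a2 overlap: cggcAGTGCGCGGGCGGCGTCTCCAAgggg

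*Col4a5* (chrX:140258381-140472230), part of the kidney and lung type IV networks, measured 45.3, 44.7 and 46.4 CPM in WT and 17.7, 19.2 and 20.7 CPM in the libraries labelled cKO. It fell without overlap (log2 fold change -1.24, standard error 0.070, edgeR adjusted p = 1.09e-10). Its neighbour *Col4a6*, whose start lies 1308 bases away on the opposite strand, was counted 29, 33 and 34 times in WT and 22, 17 and 12 times in the libraries labelled cKO and did not pass (edgeR adjusted p = 0.155). Both lie on the X chromosome, so their values share the confounding of genotype with sex. *Col4a3* was counted 19, 22 and 44 times in WT and 12, 6 and 17 times in the libraries labelled cKO and did not pass either (log2 fold change -1.27, standard error 0.553, edgeR adjusted p = 0.0816). It was tested only through its WT counts, so the filter favoured a fall. *Col4a4*, 71 bases from *Col4a3*, had too few counts to be tested.

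Markers of vessel-associated cells, which lay down basement membranes, moved in the same libraries. Of 7 mural markers, all tested, 6 fell at least 2-fold and none rose, where 4.64% of all tested genes fell at least 2-fold. Their summed levels were 1149 to 1339 CPM in WT and 494.4 to 554.9 CPM in the libraries labelled cKO. Most of these sums came from *Acta2*, which averaged 760.6 and 376.1 CPM, and *Tagln*, which averaged 402.7 and 134.5 CPM. *Myh11*, the smooth muscle myosin, averaged 10.0 and 0.445 CPM, and no mural marker was at 0 in a whole group. Of 7 endothelial markers 6 were tested, 4 fell and 2 rose, where 19.2% of all tested genes fell and 20.1% rose. Of the falling ones 3 were tested only through their WT counts, so the filter favoured their fall. The summed level of the endothelial markers was 10.8 to 12 CPM in WT and 19.4 to 21.8 CPM in the libraries labelled cKO. *Pecam1* averaged 1.42 and 0.687 CPM. *Tie1*, which was not tested, had 3, 24 and 8 counts in WT and 0 counts in every library labelled cKO. The 2 rising markers were *Kdr*, which averaged 1.35 and 5.55 CPM, and *Vwf*, which averaged 4.46 and 14.2 CPM. The part of either cell type in the type IV values was not tested.

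The 3 tested genes of the beaded filament class, *Col6a1*, *Col6a2* and *Col6a3*, all rose and none by 2-fold. *Col6a2* averaged 603.7 ± 22.3 CPM in WT and 838.3 ± 12.6 CPM in the libraries labelled cKO (log2 fold change 0.47). *Col6a3*, the large chain that completes the type VI heterotrimer, averaged 480.0 ± 17.2 and 588.4 ± 25.0 CPM (log2 fold change 0.29, edgeR adjusted p = 1.41e-05). Neither overlapped between groups, and all 3 genes passed in the same direction under each of 15 other settings.

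The short-chain network genes split. *Col8a1*, a chain of the type VIII collagen of vessel walls and of Descemet's membrane in the cornea, averaged 370.7 ± 18.2 CPM in WT and 225.6 ± 4.31 CPM in the libraries labelled cKO (log2 fold change -0.72). *Col8a2* (chr4:126180586-126208123), the other type VIII chain, was counted 445, 462 and 348 times in WT and 1142, 1041 and 1307 times in the libraries labelled cKO. It rose without overlap (log2 fold change 1.54, standard error 0.085, edgeR adjusted p = 8.54e-11), in the direction opposite to its partner. *Col10a1*, the collagen of hypertrophic chondrocytes, was counted 173, 241 and 140 times in WT and 91, 109 and 152 times in the libraries labelled cKO. It fell in CPM (log2 fold change -0.58, standard error 0.208, edgeR adjusted p = 0.0361), but did not pass without WT replicate 2 (adjusted p = 0.151), without cKO replicate 1 (0.160) or without cKO replicate 2 (0.0886). *Col10a1* lies within the span of *Nt5dc1* on the opposite strand, and since the strand setting of the counting is not stated, its count is uncertain.

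Of 9 FACIT genes 7 were tested, of which 3 rose, 3 fell and 1, *Col12a1*, did not pass. The 3 rising genes were those of type IX collagen, which coats type II fibrils in cartilage. *Col9a1* (chr1:24216691-24291765) was counted 0 times in every WT library and 28, 24 and 24 times in the libraries labelled cKO. *Col9a2* (chr4:120896582-120912519) was counted 0 times in every WT library and 168, 187 and 178 times in the libraries labelled cKO. *Col9a3* (chr2:180239583-180263982) was counted 24, 30 and 15 times in WT and 337, 359 and 395 times in the libraries labelled cKO. Against a floor of 3 counts per WT library, *Col9a1* was at least 8.79-fold and *Col9a2* at least 61.7-fold higher. If both mates of a read pair were counted, as the 63.4% to 65.7% of even values among counts of 1 to 10 would give, a floor of 6 counts puts these bounds at 4.40-fold and 30.9-fold. *Col9a3* rose from 0.508 ± 0.111 to 8.58 ± 0.520 CPM (log2 fold change 4.05, standard error 0.207, edgeR adjusted p = 2.95e-11). Its span shares 234 bases with *Tcfl5* on the opposite strand, which had up to 440 counts in a library, so part of its count is uncertain. *Col9a3* alone of these genes could have been tested on its WT counts, and its groups did not overlap.

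The stretches just before the outermost annotated start of each type IX gene in GRCm39 (all on the plus strand) are shown because these genes had the 3 largest fitted rises among the collagen genes, at chr1:24216441-24216690 (*Col9a1*), chr4:120896332-120896581 (*Col9a2*) and chr2:180239333-180239582 (*Col9a3*). Capitals mark the CCAAT box (CCAAT) and the SOX core (ACAAT) on either strand, which are short letter patterns and not measured binding sites.
Col9a1: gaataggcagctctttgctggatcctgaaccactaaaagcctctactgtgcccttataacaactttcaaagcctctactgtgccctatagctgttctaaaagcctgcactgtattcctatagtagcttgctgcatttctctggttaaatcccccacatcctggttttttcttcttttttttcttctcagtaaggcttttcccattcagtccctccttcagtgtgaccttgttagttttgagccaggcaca
Col9a2: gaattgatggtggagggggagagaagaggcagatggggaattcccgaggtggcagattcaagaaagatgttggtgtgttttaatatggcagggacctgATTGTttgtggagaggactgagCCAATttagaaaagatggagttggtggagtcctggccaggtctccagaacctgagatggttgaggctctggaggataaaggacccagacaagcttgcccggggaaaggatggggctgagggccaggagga
Col9a3: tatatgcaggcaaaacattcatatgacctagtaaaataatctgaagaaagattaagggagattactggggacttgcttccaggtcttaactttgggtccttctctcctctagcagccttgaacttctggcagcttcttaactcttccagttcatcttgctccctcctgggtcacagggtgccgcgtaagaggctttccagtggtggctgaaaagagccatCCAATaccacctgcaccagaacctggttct

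*Col9a2* held 1 CCAAT box and 1 SOX core, *Col9a3* held 1 CCAAT box, and *Col9a1* held neither. No searched pattern was therefore present in all 3 stretches.

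Cartilage markers differed between the same libraries as the type IX genes and *Col11a2*. Of 11 chondrocyte markers 7 were tested and these rose, where 20.1% of all tested genes rose. But 4 of them (*Acan*, *Cnmd*, *Matn1* and *Ucma*) were tested only through the counts of the libraries labelled cKO, so the filter favoured their rise. The summed level of the list was 623.2 to 680.9 CPM in WT and 2236 to 2373 CPM in the libraries labelled cKO, and *Comp*, a cartilage and tendon matrix protein, alone averaged 567.0 ± 26.4 and 2117 ± 75.2 CPM. *Acan*, the cartilage proteoglycan aggrecan, averaged 0.124 ± 0.0736 and 20.2 ± 0.521 CPM, and *Cnmd*, chondromodulin, 0.381 ± 0.202 and 45.6 ± 2.73 CPM. *Sox9*, the transcription factor of chondrocyte identity, averaged 64.0 ± 4.26 and 75.8 ± 1.12 CPM, and *Hapln1*, which links aggrecan to hyaluronan, 14.7 ± 0.876 and 25.0 ± 1.10 CPM. The 4 untested markers were *Chad*, *Epyc*, *Matn3* and *Snorc*. *Snorc* was counted 0 times in every WT library and 0, 10 and 4 times in the libraries labelled cKO, and *Matn3* 8, 8 and 16 times in WT and 4, 9 and 0 times in the libraries labelled cKO, so their groups overlapped. *Epyc* was counted 0, 2 and 3 times in WT and 0, 2 and 0 times in the libraries labelled cKO. *Chad* was counted 0, 0 and 2 times in WT and 12, 5 and 14 times in the libraries labelled cKO, without overlap. Within the cartilage collagens the direction was not shared, since *Col2a1* fell and *Col11a1* did not pass. The part of cartilage cells in these values was not tested.

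The falling FACIT genes were *Col14a1*, *Col16a1* and *Col20a1*. *Col14a1* (chr15:55171146-55384199), which binds fibril surfaces in skin and tendon, was counted 777, 964 and 572 times in WT and 233, 216 and 211 times in the libraries labelled cKO. It fell without overlap (log2 fold change -1.72, standard error 0.124, edgeR adjusted p = 3.47e-09), from 17.1 ± 2.35 to 5.20 ± 0.488 CPM. A pseudogene on the opposite strand, *Gm18787*, shares 784 bases with it and had up to 132 counts in a library, so part of its count is uncertain. Its close relative in structure, *Col12a1*, did not pass. *Col16a1* averaged 258.9 ± 15.0 and 140.7 ± 1.10 CPM (log2 fold change -0.88). *Col20a1* averaged 2.12 ± 0.696 and 1.11 ± 0.140 CPM (log2 fold change -0.93, edgeR adjusted p = 0.0196), but did not pass without WT replicate 3 (adjusted p = 0.121) or without cKO replicate 3 (0.0783). It shares 741 bases with the lncRNA *9230112E08Rik* on the same strand, which had up to 617 counts in a library, so its count is uncertain.

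Among the multiplexins, basement membrane collagens with interrupted helices, the tested pair went apart. *Col15a1* (chr4:47208161-47313167), which bridges fibrils and basement membranes of muscle and vessels, was counted 1836, 1650 and 1481 times in WT and 46, 62 and 59 times in the libraries labelled cKO. The groups lay far apart, and its log2 fold change of -4.83 (standard error 0.128, edgeR adjusted p = 4.67e-15), or 28.4-fold lower, was the largest fall among the 35 tested collagen genes. *Col18a1* (chr10:76888012-77002382), the source of endostatin, was counted 1383, 1472 and 1216 times in WT and 2844, 2755 and 3009 times in the libraries labelled cKO. It rose without overlap (log2 fold change 1.15, standard error 0.0535, edgeR adjusted p = 8.48e-12). *Col18a1* shares 8825 bases with *Slc19a1* on the opposite strand, which had up to 1247 counts in a library, so part of its count is uncertain.

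The stretch before the outermost annotated start of *Col15a1*, GRCm39 chr4:47207332-47207581 on the plus strand, is shown because this gene had the largest fall. That start, 47207582, is the one GENCODE M39 gives, and the start in the deposited table lies further downstream. Capitals mark its CCAAT box, and the stretch overlaps *Gm12426*, a lncRNA gene on the opposite strand that had at most 8 counts in a library.
Col15a1: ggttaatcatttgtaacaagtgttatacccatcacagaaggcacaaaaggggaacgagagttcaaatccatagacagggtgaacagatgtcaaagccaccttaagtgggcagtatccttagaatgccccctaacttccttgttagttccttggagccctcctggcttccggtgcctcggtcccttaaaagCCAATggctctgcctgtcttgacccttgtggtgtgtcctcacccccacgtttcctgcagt

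Of the anchoring fibril and transmembrane genes, all of low level, 3 were tested and 2 fell. *Col7a1* (chr9:108782654-108813943), the anchoring fibril collagen of skin, was counted 371, 410 and 378 times in WT and 81, 68 and 95 times in the libraries labelled cKO (log2 fold change -2.19, standard error 0.163, edgeR adjusted p = 5.15e-09). *Col23a1* (chr11:51180747-51474745), a transmembrane collagen, was counted 332, 298 and 354 times in WT and 67, 55 and 52 times in the libraries labelled cKO (log2 fold change -2.45, standard error 0.206, edgeR adjusted p = 2.71e-08). Both fell without overlap. *Col17a1*, the transmembrane collagen of hemidesmosomes, was counted 38, 80 and 46 times in WT and 12, 8 and 44 times in the libraries labelled cKO. It was tested only through its WT counts, so the filter favoured a fall. Its cKO replicate 3 lay within the WT range, and it did not pass (log2 fold change -1.30, standard error 0.504, edgeR adjusted p = 0.0501), while without that library its log2 fold change was -2.30 with an adjusted p of 0.00285, and without WT replicate 1 the adjusted p was 0.0417. *Col28a1* (chr6:7997808-8192617), a von Willebrand factor A domain collagen known from peripheral nerve, was counted 117, 121 and 83 times in WT and 27, 25 and 50 times in the libraries labelled cKO. It fell without overlap (log2 fold change -1.59, standard error 0.299, edgeR adjusted p = 0.000338).

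The 9 collagen genes that were not tested were *Col4a4*, *Col6a4*, *Col6a5*, *Col6a6*, *Col13a1*, *Col19a1*, *Col22a1*, *Col25a1* and *Col26a1*. None exceeded 15 counts in a library, and *Col26a1* had 0 counts in all 6. At this depth no difference between groups could be tested for them.

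As ratios of CPM per kilobase, 5 pairs of chains of 1 collagen type and 3 pairs of genes of different types were compared. *Col1a1*/*Col1a2* was 3.33, 3.23 and 3.23 in WT and 2.21, 2.17 and 2.18 in the libraries labelled cKO. *Col3a1*/*Col1a1* was 0.864, 0.890 and 0.857 in WT and 1.515, 1.498 and 1.523 in the libraries labelled cKO. For both ratios the groups lay far apart against the spread within them. *Col12a1*/*Col14a1* averaged 130.4 ± 19.3 and 430.8 ± 55.9, *Col5a1*/*Col5a2* 0.416 ± 0.00893 and 0.335 ± 0.00970, *Col5a1*/*Col1a1* 0.228 ± 0.00224 and 0.206 ± 0.000857, and *Col6a1*/*Col6a2* 2.85 ± 0.135 and 2.56 ± 0.0626 (SD, n = 3 each). These 6 ratios did not overlap between groups and reached the smallest two-sided exact permutation p of 0.1, which is 0.129 after Benjamini-Hochberg adjustment over the 8 ratios and the collagen share. *Col4a1*/*Col4a2* was 0.959 ± 0.0178 and 0.937 ± 0.0113 (exact permutation p = 0.2, adjusted 0.225) and *Col6a3*/*Col6a1* 0.195 ± 0.00946 and 0.191 ± 0.00929 (exact permutation p = 0.6, adjusted 0.6). The pair of type IV genes thus kept nearly equal levels per kilobase while both levels were over 3-fold lower. A further 3 ratios were computed after their genes' values were seen and are given without a test. *Col8a2*/*Col8a1* averaged 0.0443 in WT and 0.212 in the libraries labelled cKO, *Col11a2*/*Col11a1* 0.0111 and 0.101, and *Col18a1*/*Col15a1* 0.744 and 47.4.

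**Figure D4:**
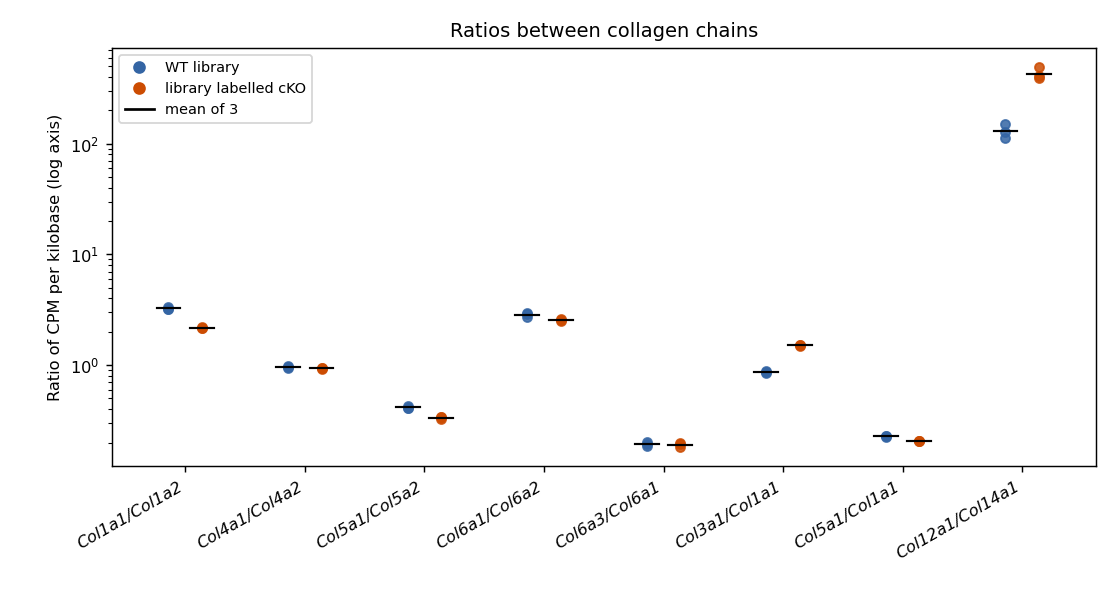
Ratios of CPM per kilobase between 8 pairs of collagen genes (y axis, log axis), with 1 point per library and a line at the mean of 3. *Col1a1*/*Col1a2* is lower and *Col3a1*/*Col1a1* and *Col12a1*/*Col14a1* are higher in the libraries labelled cKO, and *Col4a1*/*Col4a2* and *Col6a3*/*Col6a1* overlap between groups.

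Collagen chains are modified and folded in the endoplasmic reticulum, trimmed outside the cell and cross-linked by lysyl oxidases. Of 35 genes of this maturation path 33 were tested, of which 5 rose, 20 fell and 8 did not pass. The shares over all tested genes were 20.1% rising and 19.2% falling. The median log2 fold change of the path was -0.27 against 0.0077 for all tested genes. Without WT replicate 1, 3 rose. When scaled to collagen counts, 12 rose and 15 fell. The largest falls were those of *Adamts14*, a procollagen N-proteinase (log2 fold change -1.64), *Tll1*, a tolloid protease that removes C-propeptides (-1.59), and *Loxl2*, a cross-linking oxidase (-1.57). *Bmp1*, the main C-proteinase, and *Adamts2*, the main N-proteinase, also fell (-1.08 and -1.10). *Lox* fell from 12940 ± 562.9 to 9573 ± 219.9 CPM (-0.43), and the chaperone *Serpinh1* (HSP47) and the prolyl 4-hydroxylase subunits *P4ha1*, *P4ha2* and *P4hb* fell by 0.41 to 0.75 on the log2 scale. The largest rises were those of *P3h2*, a prolyl 3-hydroxylase associated with type IV collagen (1.39), *P4ha3* (0.53) and *Adamts3* (0.44).

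Of 11 collagen receptors 10 were tested, and 5 rose and 5 fell, where 20.1% of all tested genes rose and 19.2% fell. *Itga11*, the fibrillar collagen integrin of mesenchymal cells, averaged 187.5 CPM in WT and 417.6 CPM in the libraries labelled cKO (log2 fold change 1.16), and *Itga10*, the integrin of cartilage, 3.13 and 10.8 CPM (1.79). *Lair1*, an inhibitory collagen receptor of leukocytes, had the largest rise (3.78), in the libraries where macrophage markers were also higher. The part of macrophages in the *Lair1* values was not tested. The largest falls were those of *Itga2*, another collagen-binding integrin (-1.32), *Mrc2*, which takes up collagen fragments (-0.84), and *Ddr1*, a collagen-binding tyrosine kinase (-0.47).

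Of 8 genes of collagen breakdown 4 rose, 3 fell and *Fap* did not pass, where 20.1% of all tested genes rose and 19.2% fell. *Mmp13*, the main rodent collagenase, averaged 879.3 ± 30.1 CPM in WT and 2938 ± 119.8 CPM in the libraries labelled cKO (log2 fold change 1.74, edgeR adjusted p = 3.0e-16), and *Mmp8*, the neutrophil collagenase, 4.55 ± 1.41 and 19.5 ± 1.58 CPM (2.11). *Mmp9*, a gelatinase abundant in osteoclasts, averaged 21.9 ± 3.70 and 3.05 ± 0.609 CPM (-2.83), and *Mmp14*, the membrane collagenase, and *Ctsk*, the osteoclast protease of type I collagen, fell by 0.41 each on the log2 scale. The collagenase genes *Mmp13* and *Mmp8* rose in the libraries in which *Col1a1*, *Col2a1* and the type V genes fell. In the same libraries *Mmp14* fell, and *Col3a1*, *Col6a1*, *Col6a2* and *Col6a3* rose. A link between these changes was not tested.

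The marker lists of other cell types of bone and its surroundings did not share 1 direction. For comparison, 20.1% of all tested genes rose and 19.2% fell. Of 7 osteoblast markers 5 were tested, 2 rose (*Ibsp* and *Alpl*) and 3 fell (*Spp1*, *Sp7* and *Runx2*), and *Bglap* averaged 0.0589 and 0.0702 CPM. Their summed level was 8111 to 9316 CPM in WT and 5505 to 5566 CPM in the libraries labelled cKO, and *Spp1* alone averaged 8495 and 5442 CPM. Of 10 fibroblast markers 4 rose (1 of them, *Clec3b*, tested only through the libraries labelled cKO) and 5 fell, with summed levels of 2557 to 2590 CPM and 2452 to 2515 CPM. Of 6 tendon markers 5 were tested, 1 rose and 1 fell, with sums of 1758 to 1919 CPM and 4049 to 4209 CPM, of which *Fmod* alone made up 1794 and 4093 CPM on average. Of 7 markers of adipogenic marrow stroma 5 were tested and 4 rose, with sums of 319.5 to 383.8 CPM and 1109 to 1135 CPM. Of these sums *Cxcl12* alone made up 333.6 and 1053 CPM on average. *Lepr* did not pass (edgeR adjusted p = 0.135). Of the untested markers, *Plin1* had 0 counts in every library and *Adipoq* had at most 8 counts in a library. Of 8 osteoclast markers 6 were tested, 1 rose and 2 fell, with sums of 207.1 to 222.4 CPM and 170.6 to 181.8 CPM. The part of these cell types in the collagen values was not tested.

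Some collagen genes are neighbours. *Col3a1* and *Col5a2* lie tail to tail on chromosome 1 with 24614 bases and no other tabled gene between them, and the first rose while the second fell. *Col9a1*, which rose, lies 9205 bases from *Col19a1*, which was not tested. RefSeq promoter windows (GRCm38.p6 table, each found once in GRCm39) were at hand for 35 of the 44 genes, 38 windows in all. The GC box GGGCGG, read on both strands, was present in 60.5% of the collagen windows and in 35.7% of all 32851 windows. The TATA box TATAAA was present in 13.2% and 13.6%, the CCAAT box in 34.2% and 37.4%, and the SOX core ACAAT in 5.26% and 31.0%. These shares count letters in windows, and neighbouring genes share part of a window.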

How the data were processed

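RNA sequencing of 3 WT and 3 cKO osteocyte cultures was analysed. The authors trimmed 150 bp paired-end reads from a directional kit, aligned them to mm39 (GRCm39) with HISAT2 2.0.5 and counted them per gene with featureCounts (1.55.0-p3 in the submitters' processing notes, another release in the methods, which also name RSEM). They deposited raw counts, not normalized, with a gene length in bases. From the counts, edgeR 4.0.16 (R 4.3.3) gave filterByExpr, TMM, glmQLFit and glmQLFTest fits with a genotype term alone, adjusted by Benjamini-Hochberg over 17146 genes. CPM use TMM-scaled library sizes. Floors allow for counting error only, because without molecular identifiers 2 reads can stem from 1 molecule. The procedure was tested on simulated data.

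Members and lists were chosen with earlier results of these data known. Every member is accounted for, and values per library are given for members with an adjusted p below 0.05 and a change of at least 2-fold and for the 6 highest per kilobase. Of the lists, members that passed and the 3 largest changes in each direction could be named, with defining markers. Alternatives were DESeq2 1.42.0, limma-voom (limma 3.58.1), other normalizations and filters, halved counts, the replicate number as a block and each library left out. Scaling to collagen counts was added after seeing the data. Unstimulated cultures and protein data were not analysed here.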

Additional observations from a re-analysis of the deposited data

How the results depend on the processing

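Of the 35 tested collagen genes, 27 kept their direction and their side of the threshold in each of up to 15 alternatives that could give a value, and the 8 others were *Col3a1*, *Col12a1*, *Col1a2*, *Col11a1*, *Col24a1*, *Col10a1*, *Col20a1* and *Col17a1*. A filter of at least 10 counts in every library removed *Col9a1* and *Col9a2*, which left 9 rising genes, 5 of them at least 2-fold. Otherwise 10 to 15 collagen genes rose and 15 to 19 fell. Scaled to collagen counts, *Col1a2* turned to 0.15 and *Col11a1* to 0.18 on the log2 scale and 12 maturation genes rose instead of 5, where the construction centres libraries on the collagens. With each library left out in turn, 3 (without WT replicate 1) to 6 maturation genes rose, the log2 difference of *Col6a3*/*Col6a1* lay between -0.062 and 0.016, turning positive without WT replicate 3 (0.0076) and without cKO replicate 3 (0.016), and *Col12a1* lay between -0.011 and 0.032, negative in 3 cases (-0.0017, -0.0042 and -0.011). Per kilobase, the log2 difference of the collagen share was -0.32 instead of -0.21. *Col17a1* passed in 8 alternatives, DESeq2 (adjusted p = 0.033) among them. The cause of these changes was not tested. Same-numbered libraries did not deviate together over all tested genes (correlations -0.00098, -0.0039 and -0.0178). Such correlations cannot show whether they shared a preparation, which the labels do not say. With the replicate block 11 collagen genes rose and 19 fell, and *Col1a2* passed (adjusted p = 0.0491). The 9 collagen genes below the low-count filter could not be tested at this depth.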
